A study of Mus musculus with 32 samples.

Results

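The genes described here are 10 components of the machinery that carries a cell through the G1 phase of the cell cycle. They comprise the D-type cyclins Ccnd1, Ccnd2 and Ccnd3, the E-type cyclins Ccne1 and Ccne2, the kinases Cdk4 and Cdk6, and the inhibitors Cdkn1b, Cdkn1c and Cdkn2a. They are 10 of the 41388 gene identifiers in the count files. The group was chosen by a measured value. Ccnd1 ranked 1 by p among the genes that were higher after Nfkbiz deletion under IL-1β, and the other 9 are its partners and inhibitors. In that comparison the fitted log2 fold change was 1.98 for Ccnd1 and 1.79 for Npr3, the next gene in the ranking. Differences between Cre and GFP cultures of the Nfkbiz line are therefore given as a description, without a test.

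D-type cyclins rise when a cell receives growth signals, bind CDK4 or CDK6, and start the phosphorylation of the retinoblastoma protein. This releases E2F transcription factors, which drive the E-type cyclins, and cyclin E with CDK2 commits the cell to DNA replication. The products of Cdkn1b (p27) and Cdkn1c (p57) bind and restrain these kinase complexes, and p57 is known for its role in the exit of growth plate chondrocytes from the cell cycle. Cdkn2a encodes both p16INK4a, which blocks CDK4 and CDK6, and p19ARF, which acts through p53. In cartilage, D-type cyclins are known for driving the proliferation of growth plate chondrocytes.

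The libraries were made from primary chondrocytes of the sterna and ribs of newborn mouse pups, used without passaging. Among the mice used here, the authors' article gives a C57BL/6 background for wild type and for mice with loxP-flanked Ldha only. There were 32 libraries in 16 conditions of 2 libraries each. Wild-type cells were untreated, or were given for 24 h the LDHA inhibitor FX11 at 40 µM, the cytokine IL-1β at 10 ng/mL, or both. Cells carrying loxP-flanked (f/f) alleles of Ldha, Nampt or Nfkbiz were given an adenovirus encoding eGFP (GFP cultures) or Cre and eGFP (Cre cultures) for 24 h, and were then left untreated or given IL-1β at 10 ng/mL for 24 h. Ldha encodes lactate dehydrogenase A, Nampt the rate-limiting enzyme of NAD salvage, and Nfkbiz the nuclear NF-κB cofactor IκB-ζ. The libraries were taken as 2 library sets, and what the sets stand for was not given. Wild-type titles in set 2 begin with the word Sample and those in set 1 do not. Each Nfkbiz f/f condition had both of its libraries in set 2, and every other condition had 1 library in each set. No wild-type culture was labelled as having received Cre, so deletion of the floxed gene and exposure to Cre cannot be told apart. The labels name no separate cultures or pups, so p-values measure the spread between these libraries, which may be technical. In bulk RNA, fewer cells of a type and less RNA per cell cannot be told apart.

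Total gene counts ran from 15830658 to 39959888 per library, with a median of 25363482. All 8 chondrocyte markers examined were above 1 CPM (gene counts scaled to library size) in every library, and their summed level was 14100 to 87930 CPM. The deleted genes were lower with Cre in their own lines. Ldha was 908.1 and 867.9 CPM in untreated GFP cultures of the Ldha line and 116.2 and 111.3 CPM with Cre. Nampt was 58.7 and 54.4 CPM in the Nampt line and 6.61 and 6.85 CPM with Cre. Nfkbiz was 15.8 and 16.7 CPM in untreated GFP cultures of its own line and 9.48 and 8.10 CPM with Cre, and under IL-1β it was 234.7 and 228.7 CPM against 29.3 and 32.3 CPM. These values include reads from any exons that the alleles leave in place. In wild-type set 2, the library labelled IL-1β held 0.779 CPM of the IL-1β target Mmp3 and the library labelled FX11 held 2034 CPM, whereas in set 1 the respective values were 9147 and 1.18 CPM. The labels of those 2 set 2 libraries and their Mmp3 levels therefore disagree, and wild-type results are given with and without them.

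Promoters of 6 of the 10 genes were in the reference table, which gives 8 windows of 300 bases, each from 250 bases before to 50 bases after a RefSeq transcription start (GRCm38.p6). Ccnd1, Ccnd2, Ccne2 and Cdkn1c were not among them. The 4 windows below belong to genes whose RNA was higher with IL-1β in the pooled GFP cultures. The window of Cdkn1b, which was lower there, held 1 GC box and is not printed. Capitals mark GC boxes (GGGCGG, bound by SP1-family factors) and E2F motifs, read on both strands.
Ccne1, 7:38107441-38107740, minus strand: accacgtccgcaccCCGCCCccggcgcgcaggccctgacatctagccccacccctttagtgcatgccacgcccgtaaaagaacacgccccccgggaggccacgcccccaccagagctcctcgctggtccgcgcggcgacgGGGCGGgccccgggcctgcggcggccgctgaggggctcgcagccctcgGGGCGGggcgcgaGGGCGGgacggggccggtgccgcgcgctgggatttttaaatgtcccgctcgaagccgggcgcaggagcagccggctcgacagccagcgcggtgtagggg
Cdk6, 5:3343643-3343942, plus strand: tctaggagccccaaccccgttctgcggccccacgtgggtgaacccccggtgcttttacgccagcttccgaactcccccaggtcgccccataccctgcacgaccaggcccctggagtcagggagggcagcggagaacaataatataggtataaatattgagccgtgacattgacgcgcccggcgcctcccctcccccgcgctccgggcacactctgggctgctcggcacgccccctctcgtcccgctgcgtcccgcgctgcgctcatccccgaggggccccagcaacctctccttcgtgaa
Cdkn2a, first window, 4:89282143-89282442, minus strand: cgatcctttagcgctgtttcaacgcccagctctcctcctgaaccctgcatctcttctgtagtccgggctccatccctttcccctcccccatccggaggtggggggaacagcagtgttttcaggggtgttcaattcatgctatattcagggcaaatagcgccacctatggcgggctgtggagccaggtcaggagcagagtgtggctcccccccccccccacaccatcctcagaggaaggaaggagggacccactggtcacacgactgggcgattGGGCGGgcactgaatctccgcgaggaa
Cdkn2a, second window, 4:89294570-89294869, minus strand: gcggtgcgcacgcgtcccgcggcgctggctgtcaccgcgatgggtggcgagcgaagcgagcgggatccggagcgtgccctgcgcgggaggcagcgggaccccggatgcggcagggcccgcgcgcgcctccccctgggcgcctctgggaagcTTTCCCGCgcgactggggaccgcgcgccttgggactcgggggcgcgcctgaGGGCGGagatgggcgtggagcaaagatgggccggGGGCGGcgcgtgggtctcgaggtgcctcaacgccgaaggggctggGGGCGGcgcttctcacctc

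The Ccne1 window held 4 GC boxes and the Cdk6 window none. The first Cdkn2a window held 1 GC box. The second held 3 GC boxes and the only E2F match among the 8 windows, TTTCCCGC at 99 bases before the start. Of 32851 promoters of the same length, 35.7% held a GC box and 2.3% held 1 of the 4 E2F octamers searched (TTTCCCGC, TTTGGCGC, TTTCGCGC and TTTGCCGC). No window held the AP-1 motif TGANTCA or the NF-κB motif, which 7.8% and 8.5% of promoters held. A match describes letters in these windows only.

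Levels of different genes were compared per kilobase of annotated exon. In the 6 untreated GFP libraries of the 3 floxed lines, Ccnd2 had the highest median at 143.1 CPM per kb, with a range of 131.3 to 208.8, and overlapped no other member. Cdkn1c followed at 89.1 (72.4 to 106.6) CPM per kb and Cdk4 at 69.4 (65.6 to 75.2) CPM per kb, and the ranges of these 2 genes overlapped. Ccnd1 stood apart from its neighbours in the order, at 43.1 (25.1 to 46.8) CPM per kb. Ccnd3, Cdkn1b, Ccne1, Cdk6 and Ccne2 formed a lower band with medians of 14.1, 12.1, 11.6, 8.56 and 8.13 CPM per kb, in which each gene overlapped the next. Cdkn2a was the lowest, at 1.49 (0.781 to 2.79) CPM per kb. The D-type cyclin RNA of untreated GFP cultures was thus mainly Ccnd2. In the plot of the members by condition, each line and treatment is shown on the scale of its own gene.

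**Figure D1:**
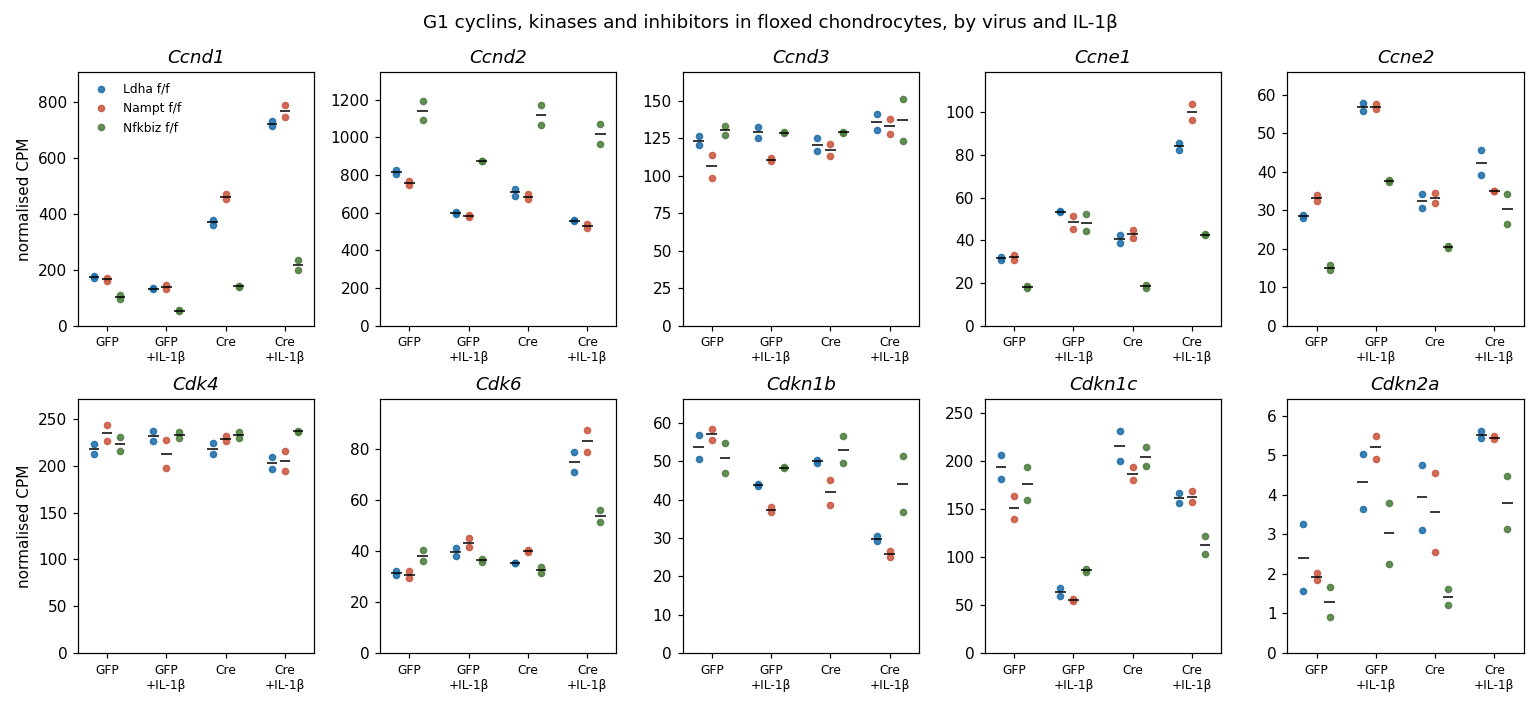
Normalised CPM (vertical axes) of the 10 members in each floxed line and condition (horizontal axes), with 1 point per library. Ccnd1 lies between 359.2 and 786.8 CPM in the Cre cultures of the Ldha and Nampt lines, above all 8 of their GFP cultures (130.0 to 179.3 CPM).

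Ccnd1 encodes cyclin D1, lies at 7:144929931-144939869 on the minus strand, and showed the largest Cre difference of the 10 members in the Ldha and Nampt lines. In the Ldha line it was 171.7 and 179.3 CPM in untreated GFP cultures and 359.2 and 379.1 CPM with Cre. Under IL-1β it was 130.5 and 134.5 CPM with GFP and 711.9 and 729.8 CPM with Cre. Both Cre libraries lay above both GFP libraries in each treatment. Ccnd1 in the Nampt line was 160.4 and 170.4 CPM with GFP and 451.6 and 470.3 CPM with Cre, and under IL-1β it was 130.0 and 144.0 CPM with GFP and 744.3 and 786.8 CPM with Cre. The groups did not overlap there either. Over both lines and treatments, the fitted log2 fold change was 1.87 ± 0.16 (SE; 3.65-fold; adjusted p = 4.47e-07; 8 Cre against 8 GFP libraries). Within the Ldha line, Ccnd1 rose 2.08-fold without IL-1β (adjusted p = 3.27e-05) and 5.47-fold under IL-1β (adjusted p = 2.75e-08). It rose 2.77-fold (adjusted p = 3.71e-07) and 5.69-fold (adjusted p = 1.96e-09) in the Nampt line. The rank of Ccnd1 by p among the genes higher with Cre was 15 and 9 in the Ldha line and 12 and 13 in the Nampt line, without and with IL-1β, and 172 in the pooled comparison. The pooled model held no term for a Cre difference that changes with IL-1β, so such a change adds to its SE and p.

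Ccnd1 shares 818 exon bases with LTO1 on the opposite strand, and the strand setting of the counting was not given, so reads in that stretch cannot be assigned with certainty. LTO1 was 9.60 to 19.2 CPM in the Ldha and Nampt lines, against 130.0 to 786.8 CPM for Ccnd1, and its own pooled Cre log2 fold change was 0.43 ± 0.09 (adjusted p = 0.00144). Shared exon bases on opposite strands also join Ccnd3 with Bysl (361), Ccne2 with Ints8 (609), Cdk4 with Tspan31 (604) and Cdk6 with an unnamed gene (60).

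The other 2 D-type cyclins moved little with Cre. Ccnd2, at 6:127125779-127151048, was 748.5 to 827.6 CPM in the 4 untreated GFP libraries of the Ldha and Nampt lines and 670.2 to 726.5 CPM in the 4 Cre libraries. Its pooled log2 fold change was -0.15 ± 0.03 (adjusted p = 0.000292). Ccnd3, at 17:47505051-47599691, was 98.9 to 126.4 CPM with GFP and 113.0 to 125.0 CPM with Cre, and its pooled log2 fold change was 0.11 ± 0.04 (adjusted p = 0.0321). Neither call held in library set 2 alone (adjusted p = 0.12 for Ccnd2 and 0.205 for Ccnd3), and the Ccnd3 call was lost when any 1 of 7 Nampt libraries was left out, the exception being the set 2 untreated GFP library (log2 0.08 to 0.11, adjusted p = 0.0506 to 0.0713). It was also lost without library set as a replicate block (0.11, adjusted p = 0.0664) and without a filter on low counts (0.12, adjusted p = 0.0659). The makeup of D-type cyclin RNA per kilobase shifted with it. Ccnd1 was 22.44 to 23.16% of the summed CPM per kb of the 3 genes in untreated GFP libraries of the Ldha and Nampt lines and 41.06 to 47.45% with Cre. Under IL-1β these shares were 22.37 to 24.57% and 62.2 to 64.99%. In the Nfkbiz line the share was lower in each matched condition, and ran from 7.6% under IL-1β with GFP to 23.09% under IL-1β with Cre.

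**Figure D2:**
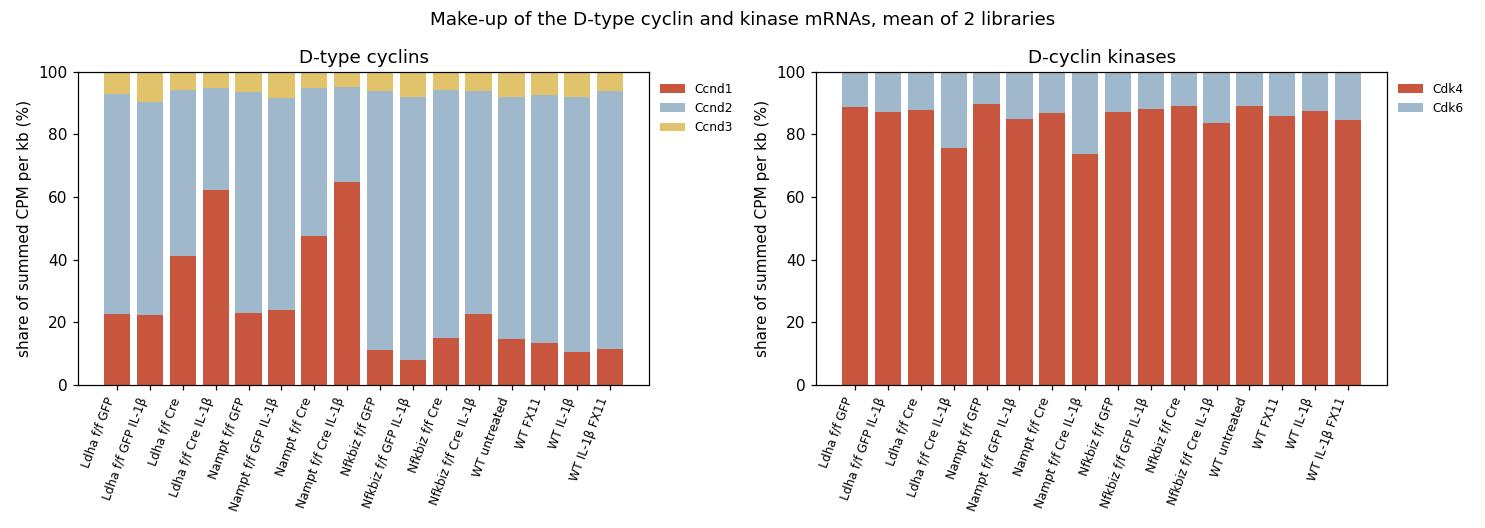
Share (%, vertical axis) of the summed CPM per kb within the D-type cyclins and the Cdk4 and Cdk6 pair, by condition (horizontal axis). Stacked bars are means of 2 libraries. In single libraries, Ccnd1 makes up 62.2 to 64.99% of D-type cyclin RNA in the Cre cultures of the Ldha and Nampt lines under IL-1β.

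The E-type cyclins parted from each other with Cre. Ccne1, at 7:38097984-38107534, was 30.9 and 32.3 CPM in untreated GFP cultures of the Ldha line and 38.8 and 42.3 CPM with Cre, and under IL-1β 54.0 and 53.2 CPM against 85.5 and 82.6 CPM. In the Nampt line it was 33.4 and 31.1 CPM against 41.1 and 45.1 CPM, and under IL-1β 51.7 and 45.3 CPM against 103.9 and 96.6 CPM. The Cre libraries were the higher ones in each of these 4 settings. Ccne1 rose with Cre over both lines (log2 fold change 0.62 ± 0.08, 1.54-fold, adjusted p = 1.57e-05). Ccne2, at 4:11191351-11204779, was 57.8 and 55.8 CPM under IL-1β with GFP in the Ldha line and 39.1 and 45.6 CPM with Cre. These values were 56.3 and 57.6 CPM against 35.0 and 35.0 CPM in the Nampt line. Without IL-1β its GFP and Cre libraries spanned 28.0 to 33.8 and 30.6 to 34.5 CPM, which overlap. Its pooled difference of -0.24 ± 0.11 did not pass the test (adjusted p = 0.0673), but passed with a Cre by IL-1β term in the model (adjusted p = 0.000721) and without the set 1 or set 2 untreated GFP library or the set 2 Cre library of the Ldha line, or the set 1 Cre library of the Nampt line (log2 -0.30 to -0.27, adjusted p = 0.0257 to 0.0434).

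Of the kinases that pair with D-type cyclins, Cdk6 rose with Cre and Cdk4 did not pass the test. Cdk6, at 5:3343893-3523218, was 30.6 and 31.97 CPM in the untreated GFP cultures of the Ldha line and 35.4 and 35.2 CPM with Cre, and under IL-1β 37.9 and 41.2 CPM against 70.7 and 78.9 CPM. In the Nampt line it was 29.2 and 31.97 CPM against 39.5 and 40.2 CPM, and under IL-1β 41.5 and 44.9 CPM against 78.8 and 87.5 CPM. The separation was widest under IL-1β in both lines. The pooled log2 fold change was 0.61 ± 0.09 (1.52-fold, adjusted p = 7.18e-05). Cdk4, at 10:127063534-127067920, stayed between 194.6 and 244.2 CPM in all 16 libraries of the 2 lines, and its pooled log2 fold change was -0.07 ± 0.04 (adjusted p = 0.12). Cdk6 made up 22.67 to 28.11% of the summed CPM per kb of the 2 kinases in Cre cultures under IL-1β and 12.2 to 16.47% in GFP cultures under IL-1β.

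The inhibitors did not move in 1 direction. Cdkn1c (p57), at 7:143458350-143461050, was 59.0 and 68.0 CPM under IL-1β with GFP in the Ldha line and 156.5 and 166.3 CPM with Cre. It was 54.3 and 55.8 CPM against 157.1 and 168.1 CPM in the Nampt line. Without IL-1β the 4 GFP libraries of these lines were 139.8 to 205.9 CPM and the 4 Cre libraries 180.2 to 231.2 CPM, so that the ranges overlapped. The pooled log2 fold change of Cdkn1c was 0.83 ± 0.17 (1.78-fold, adjusted p = 0.000722). Cdkn1b (p27), at 6:134920401-134925513, fell with Cre (pooled log2 fold change -0.41 ± 0.07, adjusted p = 0.000125). Under IL-1β it was 43.6 and 44.1 CPM with GFP and 29.2 and 30.5 CPM with Cre in the Ldha line, and 36.7 and 38.2 CPM against 24.9 and 26.6 CPM in the Nampt line. Cdkn2a, at 4:89274471-89294653, was low, at 1.56 to 5.60 CPM in the 16 libraries, and the counts do not separate its p16INK4a and p19ARF transcripts. Its pooled log2 fold change was 0.47 ± 0.16 (adjusted p = 0.0211), and in library set 2 alone it was 0.52 (adjusted p = 0.123).

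Of the 10 members, 8 passed the test between Cre and GFP over the Ldha and Nampt lines, at an adjusted p of 0.05 or less. This is to be read against 51.3% of the 14372 genes tested. There were 6 members higher (23.6% of all genes) and 2 lower (27.7% of all genes), with a median log2 fold change of 0.29 for the members and -0.03 for all genes. Library set 2 alone gave 5 members. Within the Ldha line 2 members passed without IL-1β (Ccnd1 and Ccne1; 5.52% of all genes) and 6 under IL-1β (Ccnd1, Ccne1, Cdk6 and Cdkn1c higher, Ccne2 and Cdkn1b lower; 34.0% of all genes). In the Nampt line 5 passed without IL-1β (Ccnd1, Ccne1, Cdk6 and Cdkn1c higher, Cdkn1b lower; 14.4% of all genes) and 7 under IL-1β (the same 6 as in the Ldha line, and Ccnd3; 48.4% of all genes). With library set as a replicate block, Ccnd2 passed as well in the Ldha line without IL-1β (log2 -0.22, adjusted p = 0.00905) and Cdk4 under IL-1β (log2 -0.18, adjusted p = 0.0103). In the Nampt line the block brought the count without IL-1β to 8, adding Ccnd2 (-0.16, adjusted p = 0.00047), Ccnd3 (0.14, adjusted p = 0.0413) and Cdkn2a (0.80, adjusted p = 0.0161), and added Ccnd2 under IL-1β (-0.11, adjusted p = 0.00904).

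Several calls within lines were lost when 1 library was left out. Each such fit has fewer libraries, so a loss does not single out the library left out. In the Ldha line without IL-1β, Ccne1 was lost on leaving out any library but the set 1 GFP library under IL-1β (log2 0.29 to 0.40, adjusted p = 0.0504 to 0.22), and under IL-1β Ccne2 was lost without the set 1 Cre library (-0.32, adjusted p = 0.059). For Nampt without IL-1β, leaving out the set 2 Cre library left Ccnd1 alone, with adjusted p = 0.0827 for Ccne1, 0.0585 for Cdk6, 0.0591 for Cdkn1b and 0.153 for Cdkn1c. Leaving out the set 1 GFP library there lost Cdk6 (adjusted p = 0.0964) and Cdkn1c (0.18), leaving out the set 1 Cre library lost the same 2 genes (0.0513 and 0.0543) and added Cdkn2a (log2 1.21, adjusted p = 0.0163), and leaving out the set 2 GFP library lost Ccne1 (0.0551). Under IL-1β in that line, Ccnd3 was lost without the set 1 GFP library (0.0714) or the set 2 Cre library (0.0617). Ccnd1 passed in every one of these fits.

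**Figure D3:**
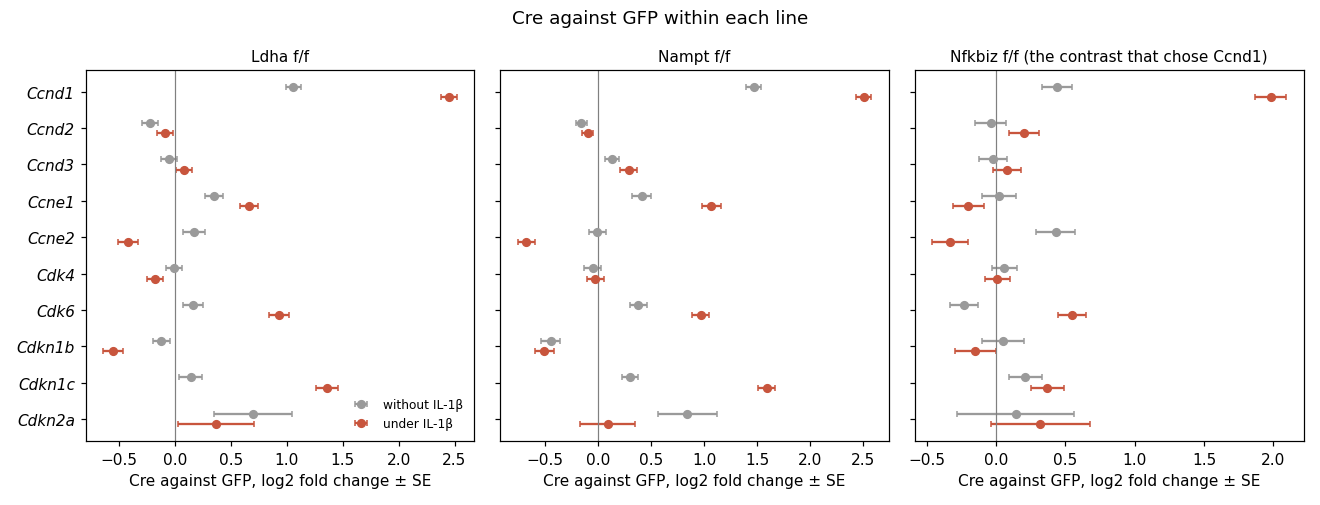
Log2 fold change of Cre against GFP (horizontal axis; bars are SE) for each member within the Ldha, Nampt and Nfkbiz lines, without and with IL-1β. Ccnd1 lies at 1.06 and 1.47 without IL-1β and at 2.45 and 2.51 under IL-1β in the Ldha and Nampt lines, and at 0.44 and 1.98 in the Nfkbiz line, whose values are a description.

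The Cre difference was compared between treatments by an interaction term over the 16 libraries, and 6 members passed, against 39.3% of all genes. Ccnd1 had an interaction of 1.17 ± 0.08 (log2; adjusted p = 1.71e-10), a larger Cre difference under IL-1β. Cdkn1c had 1.22 ± 0.08 (adjusted p = 8.99e-11), Cdk6 0.63 ± 0.08 (adjusted p = 6.68e-07) and Ccne1 0.44 ± 0.10 (adjusted p = 0.00086). Ccne2, at -0.67 ± 0.11 (adjusted p = 4.51e-05), and Cdkn1b, at -0.29 ± 0.10 (adjusted p = 0.0257), had a lower Cre difference under IL-1β. The Ccne1 term missed the threshold in set 2 alone (0.43, adjusted p = 0.0508). The Cdkn1b term was lost with DESeq2 (adjusted p = 0.0523), with RLE scaling (0.052), without a filter (0.0912), in set 2 alone (0.518) and without any 1 of 6 libraries, namely either untreated Cre library or the set 2 GFP library, untreated or with IL-1β, of the Ldha line, and the set 1 Cre library, untreated or with IL-1β, of the Nampt line (log2 -0.27 to -0.22, adjusted p = 0.0507 to 0.0719). Leaving out the set 2 untreated GFP library of the Ldha line added Cdkn2a (-0.77, adjusted p = 0.0295), and leaving out the set 2 GFP library of the Nampt line under IL-1β added Cdk4 (-0.17, adjusted p = 0.0365). The same differences seen from the other side were that IL-1β went with a lower Ccnd1 in GFP cultures, whereas in Cre cultures the fitted IL-1β log2 difference was 0.97 in the Ldha line and 0.74 in the Nampt line.

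Whether the Cre difference itself differed between the Ldha and Nampt lines was tested by a Cre by line term, which 0.0348% of all genes passed. No member passed, with log2 terms of -0.20 to 0.23 and adjusted p of 0.826 to 0.977 by edgeR. For Ccnd1 the term was 0.21 ± 0.32. With a Cre by IL-1β term in the model 499 genes passed, none of them a member. Over all alternatives to the main fit, the Ccnd1 Cre by line term ran from 0.07 to 0.36, with a lowest adjusted p of 0.0504. A p that misses the threshold does not show that the lines respond alike.

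**Figure D4:**
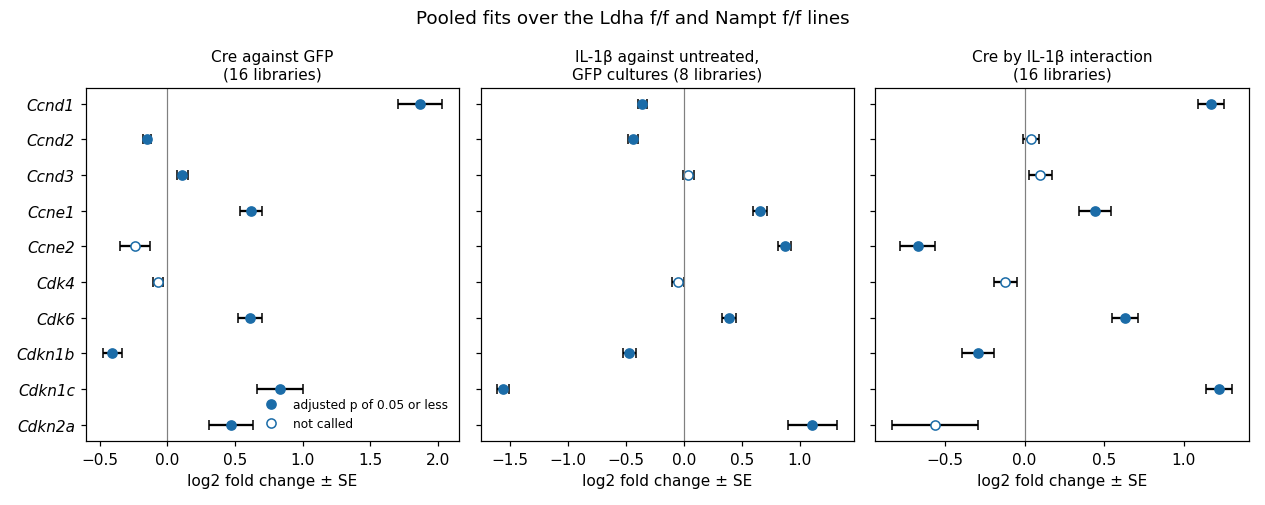
Log2 fold change (horizontal axis, bars are SE) of the 10 members over the Ldha and Nampt lines. The panels show Cre against GFP (8 against 8 libraries), IL-1β against untreated in GFP cultures (4 against 4) and the Cre by IL-1β interaction (16 libraries). With Cre, Ccnd1 lies at 1.87 and Cdkn1b at -0.41, and with IL-1β, Cdkn2a lies at 1.11 and Cdkn1c at -1.56.

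IL-1β in GFP cultures of the Ldha and Nampt lines went with higher E-type cyclins and with lower Ccnd1 and Ccnd2, but not with a called change in Ccnd3. These libraries are also the GFP side of the Cre comparison. The E-type cyclins rose, Ccne2 by 0.87 ± 0.06 (adjusted p = 2.98e-12) and Ccne1 by 0.66 ± 0.06 (adjusted p = 9.58e-10) on the log2 scale. The D-type cyclins Ccnd1 (-0.36 ± 0.04, adjusted p = 1.89e-07) and Ccnd2 (-0.44 ± 0.04, adjusted p = 9.83e-10) fell, and Ccnd3 gave 0.04 ± 0.05 (adjusted p = 0.473). Cdk6 rose by 0.39 ± 0.06 (adjusted p = 4.76e-06), whereas Cdk4 gave -0.05 ± 0.05 (adjusted p = 0.387). Among the inhibitors, Cdkn1c fell most. It was 139.8 to 205.9 CPM in the 4 untreated libraries and 54.3 to 68.0 CPM in the 4 with IL-1β, a 2.94-fold lower level (log2 -1.56 ± 0.05, adjusted p = 7.44e-19). Cdkn1b fell by 0.47 ± 0.06 on the log2 scale (adjusted p = 7.92e-07). Cdkn2a rose 2.16-fold (log2 1.11 ± 0.21, adjusted p = 5.95e-05), from 1.56 to 3.27 CPM to 3.64 to 5.49 CPM.

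With IL-1β 8 of the 10 members passed, 4 higher and 4 lower, against 54.4% of the 14568 genes tested (26.5% higher and 27.9% lower). The median log2 fold change of the members was -0.00 and that of all genes -0.01. Within the Ldha line 7 members passed (27.9% of all genes), Cdkn2a being the difference (log2 0.84, adjusted p = 0.106, and with a replicate block 0.88, adjusted p = 0.00897). Cdk6 was lost there without the set 1 untreated library (adjusted p = 0.0899) or the set 2 IL-1β library (0.137), and Cdkn1b without those 2 (0.128 and 0.0779) or the set 1 IL-1β library (0.0919). Without the set 2 untreated library Cdkn2a passed (1.43, adjusted p = 0.0174). Within the Nampt line 8 passed (35.0% of all genes), with Cdk4 added under the block (-0.17, adjusted p = 0.00118) and Ccnd1 lost without the set 1 IL-1β library (-0.22, adjusted p = 0.0723).

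In the GFP cultures of the Nfkbiz line, 9 members were tested, since Ccnd1 there entered the choice of the genes. Of these, 5 passed, against 26.8% of all genes. Ccne1 was 17.6 and 18.7 CPM untreated and 44.6 and 52.2 CPM with IL-1β (log2 1.41 ± 0.11, adjusted p = 1.45e-06), and Ccne2 was 15.8 and 14.4 CPM against 37.9 and 37.4 CPM (1.31 ± 0.13, adjusted p = 1.1e-05). Cdkn1c was 193.8 and 158.9 CPM untreated and 84.1 and 87.8 CPM with IL-1β (-1.04 ± 0.12, adjusted p = 3.35e-05). Both E-type cyclins were thus higher, and Cdkn1c lower, in each IL-1β library than in each untreated one. Ccnd2 (-0.39, adjusted p = 0.0166) and Cdkn2a (1.22 ± 0.39, adjusted p = 0.0368) also passed. Ccnd2 was lost without GFP replicate 1 (adjusted p = 0.148) or IL-1β replicate 1 (0.129) or 2 (0.131), and Cdkn2a without GFP replicate 2 (0.85, adjusted p = 0.235) or IL-1β replicate 1 (0.81, adjusted p = 0.291). Cdk6 and Cdkn1b did not pass in this line, both at -0.08 on the log2 scale.

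In the Nfkbiz line, which supplied the choice of the genes, Ccnd1 was 110.7 and 96.1 CPM in untreated GFP cultures and 139.8 and 142.0 CPM with Cre. Under IL-1β it was 53.0 and 56.1 CPM with GFP and 200.3 and 235.7 CPM with Cre, which is a fitted 3.95-fold. The other 9 members spanned fitted log2 values of -0.33 (Ccne2) to 0.55 (Cdk6) in that comparison, in which 17.4% of all genes passed. Without IL-1β they spanned -0.23 (Cdk6) to 0.43 (Ccne2), and 0.260% of all genes passed. By rank, Ccnd1 stood at 56 among the genes higher with Cre in the Nfkbiz line without IL-1β.

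Nfkbiz RNA itself was lower with Cre in the other 2 lines under IL-1β. It was 176.8 and 165.4 CPM with GFP and 70.5 and 67.8 CPM with Cre in the Ldha line, and 206.9 and 209.7 CPM against 68.9 and 62.2 CPM in the Nampt line. Without IL-1β, Nfkbiz in these lines was 15.2 to 24.7 CPM with GFP and 15.5 to 18.4 CPM with Cre, and the ranges overlapped. Its part in the Ccnd1 values was not tested.

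Marker genes of cell types moved with the same comparisons. All 8 chondrocyte markers were lower with Cre over the Ldha and Nampt lines, and their summed level was 65670 to 67970 CPM in untreated GFP libraries and 46730 to 49120 CPM with Cre, and 25330 to 26210 CPM against 14100 to 15620 CPM under IL-1β. Of 7 fibroblast markers, 6 were lower with Cre, and their summed level was 3914 to 5938 CPM with GFP and 2443 to 5287 CPM with Cre. The summed level of the 4 endothelial markers was 3.27 to 7.54 CPM with GFP and 9.95 to 26.7 CPM with Cre. Of the 3 of these that were tested, the receptor gene Kdr was higher with Cre (log2 3.10) and Pecam1 lower (-0.90). No chondrocyte or fibroblast marker was at 0 in any library. The summed macrophage and leukocyte markers were 12.8 to 31.0 CPM with GFP and 14.4 to 25.6 CPM with Cre, those of skeletal muscle 31.1 to 108.7 and 29.2 to 86.3 CPM, and those of red blood cells 1.19 to 5.47 and 1.52 to 2.90 CPM. In the Nfkbiz line the summed chondrocyte markers were 71940 to 83870 CPM in untreated GFP libraries and 61350 to 75840 CPM with Cre, and under IL-1β 27590 to 29860 CPM against 33110 to 36080 CPM, higher with Cre. Its summed fibroblast markers were 780.9 to 1228 CPM, below the 2443 to 5938 CPM of the Ldha and Nampt lines. The part of these shifts in the values of the 10 genes was not tested.

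Of 45 further genes of the pathway, 12 were higher and 9 lower with Cre over the Ldha and Nampt lines, and 24 did not pass. Of all genes, 23.6% were higher and 27.7% lower, 51.3% in all, so the 21 of 45 called lay near that share. Among the pocket proteins and E2F factors 6 of 13 were higher and 3 lower. E2f1 (0.33 ± 0.05, adjusted p = 0.000135) and E2f2 (0.70 ± 0.11, adjusted p = 0.000154), activators of S-phase genes, were higher. So were E2f8 (0.47 ± 0.08, adjusted p = 0.000224), the repressor E2f7 (0.29 ± 0.06, adjusted p = 0.00108), E2f6 (0.23 ± 0.07, adjusted p = 0.0104) and Rbl2 (0.19 ± 0.06, adjusted p = 0.0128). The lower ones were E2f5 (-0.46 ± 0.09, adjusted p = 0.000445), a repressor, Rbl1 (-0.25 ± 0.08, adjusted p = 0.0208) and Tfdp2 (-0.19 ± 0.07, adjusted p = 0.0428). Activators and repressors thus did not part by direction. Of the 4 other kinase inhibitors, Cdkn1a (p21, a target of p53) was higher (0.44 ± 0.04, adjusted p = 2.95e-07) and Cdkn2c (p18) lower (-0.56 ± 0.13, adjusted p = 0.003). Of 6 other cyclin and kinase genes of G1 and S phase, 1 was higher and 2 lower, Ccna2 (cyclin A2, -0.29 ± 0.06, adjusted p = 0.00172) and Cdk7 (the CDK-activating kinase, -0.25 ± 0.05, adjusted p = 0.00044). Of 6 upstream and turnover genes, Myc, a growth-driving transcription factor, was lower (-0.67 ± 0.09, adjusted p = 3.9e-05). Of 16 DNA replication and mitosis genes 4 were higher and 2 lower, with Mcm5, a subunit of the replicative helicase (0.37 ± 0.04, adjusted p = 1.82e-06), and Rrm2, a subunit of ribonucleotide reductase (0.31 ± 0.05, adjusted p = 0.000106), among the higher ones. The median log2 fold change of the 45 genes was 0.04 and that of all genes -0.03.

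With IL-1β in GFP cultures 29 of the 45 were higher and 4 lower, against 26.5% higher and 27.9% lower of all genes, with a median of 0.23 against -0.01 for all genes. The DNA replication and mitosis list had 12 of 16 higher and 2 lower, among them Tyms, thymidylate synthase (0.90 ± 0.06, adjusted p = 7.26e-12), the helicase subunits Mcm3 (0.65 ± 0.04, adjusted p = 2.9e-12) and Mcm4 (0.55 ± 0.05, adjusted p = 1.63e-10), and Pcna, the polymerase clamp (0.57 ± 0.04, adjusted p = 2.16e-11). Mcm2 (-0.16 ± 0.04, adjusted p = 0.00176) and the mitotic cyclin Ccnb1 (-0.15 ± 0.06, adjusted p = 0.024) were the 2 lower ones. Of the pocket protein and E2F list, 9 of 13 were higher, including the atypical E2F repressor E2f7 (0.85 ± 0.06, adjusted p = 3.74e-12), and Tfdp2, an E2F dimer partner, was lower (-0.28 ± 0.07, adjusted p = 0.00181). In the remaining lists 2 of 6 other cyclin and kinase genes, 3 of 4 other inhibitors and 3 of 6 upstream and turnover genes were higher. Fbxw7, which directs the degradation of cyclin E protein, was lower (-0.32 ± 0.06, adjusted p = 0.000142). In the Cre by IL-1β interaction, 2 of the 45 were higher and 22 lower, with a median of -0.19 against -0.05 for all genes, of which 39.3% passed in either direction.

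Genes whose levels followed Ccnd1 most closely over the 32 libraries were Dock1, a regulator of Rac, with r = 0.95, Tle3, a transcriptional corepressor, with r = 0.94, and Axin2, a feedback inhibitor of Wnt signalling, with r = 0.93. Col7a1 (type VII collagen) and Krt18 (keratin 18) also had r = 0.93. These are Pearson correlations of log2 CPM, and the 32 points share lines, viruses and treatments. They include the Nfkbiz libraries whose values chose Ccnd1, so the ranking is a description. Among the members, Ccne1 and Ccne2 had r = 0.90, Ccne1 and Cdkn2a 0.83, Ccnd1 and Ccne1 0.70, and Cdk6 and Cdkn1b -0.75.

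In wild-type cells no member passed in any of the 4 comparisons, and 0% of the 15461 genes tested passed by edgeR. The fitted coefficient of variation between libraries was 0.426 there, against 0.104 to 0.123 within the floxed lines. Missing the threshold therefore does not show that the members were unchanged. At an unadjusted p under 0.05 there were 153 genes for IL-1β against untreated, 68 for FX11 against untreated, 102 for IL-1β with FX11 against IL-1β and 860 for IL-1β with FX11 against untreated, and DESeq2 called 6, 2, 1 and 153 genes. Ccnd1 was 118.5 CPM in set 1 and 97.0 CPM in set 2 of the untreated libraries and 81.4 and 69.9 CPM in those labelled IL-1β. It was 127.9 and 80.5 CPM in those labelled FX11, and 127.7 and 37.1 CPM in those labelled with both. The set 2 library was the lower of the pair under every label. Cdkn1c was higher in set 2 under every label, at 171.4 and 672.7 CPM in the untreated libraries, 125.0 and 254.1 CPM in those labelled FX11, 61.0 and 449.7 CPM in those labelled IL-1β and 41.4 and 116.4 CPM in those labelled with both. Without the set 2 libraries labelled IL-1β and FX11, again no member passed in any of the 4 comparisons. The summed level of the macrophage and leukocyte markers was 82.8 to 227.5 CPM in wild-type libraries and 12.8 to 54.9 CPM in the floxed lines.

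**Figure D5:**
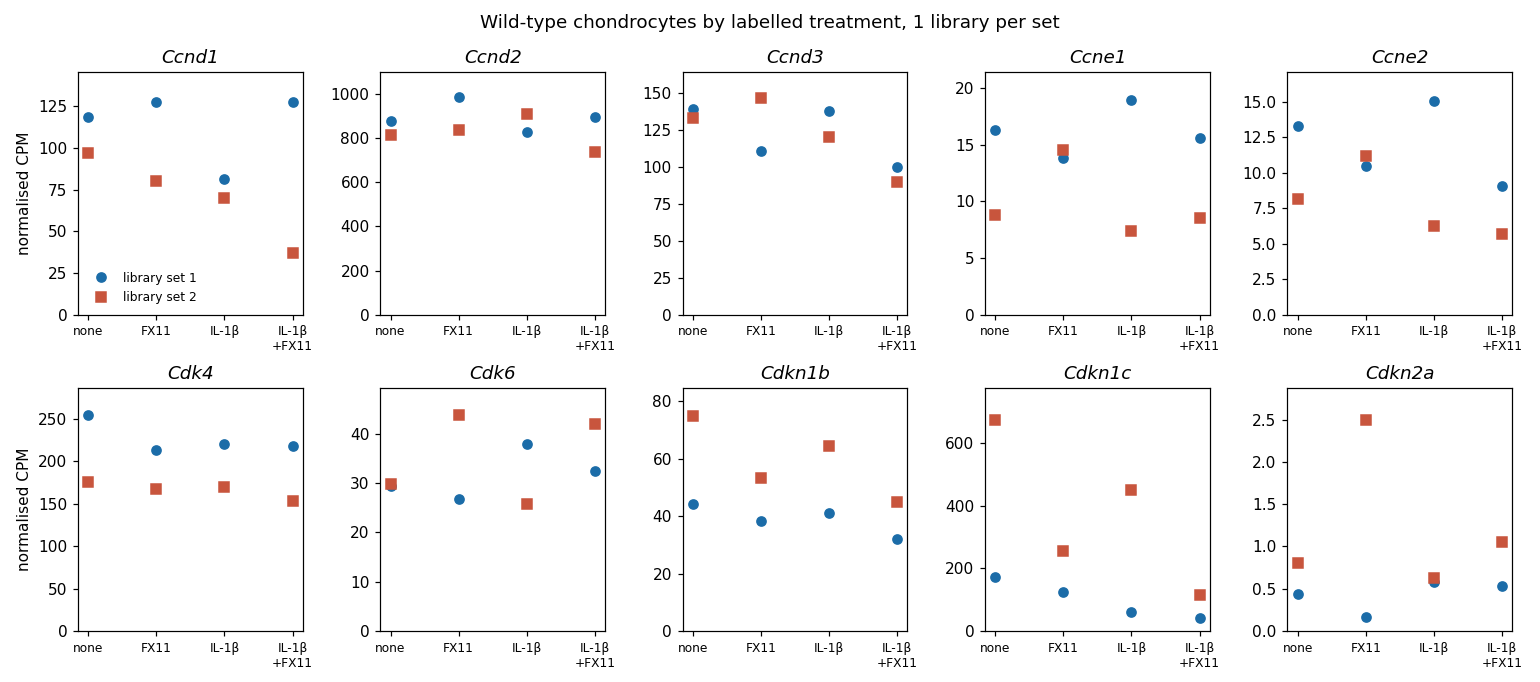
Normalised CPM (vertical axes) of the members in the 8 wild-type libraries by labelled treatment (horizontal axes), with library sets 1 and 2 marked apart. Ccnd1 runs from 37.1 to 127.9 CPM and is lower in set 2 than in set 1 under every labelled treatment.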

How the data were processed

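RNA was depleted of ribosomal RNA and sequenced by the authors, who aligned the reads with STAR to the Ensembl mouse assembly (GRCm38). They counted uniquely aligned, unambiguous reads per gene with featureCounts. The submitters' processing notes name STAR 2.0.4b and featureCounts 1.45, whereas the authors' article names other versions of both. The strand setting was not given in the sources used here. The values used are the deposited raw counts per gene, 1 file per library; the CPM and RPKM columns that the authors deposited beside them were not used.

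Groups and replicate numbers came from the labels. Library sets were inferred, in wild type from whether a title begins with the word Sample. The 355 ribosomal RNA genes were left out. Genes above 1 CPM in at least 1 library (fits within a line), 7 (16 pooled libraries) or 3 (8 pooled libraries) were tested with edgeR 4.0.16 (R 4.3.3; quasi-likelihood test, TMM scaling), and p-values were adjusted over all genes tested (Benjamini-Hochberg, threshold 0.05). Pooled fits had line, treatment or virus, and library set as covariates, and fits within a line had no block. CPM values in the text are TMM-normalised. Same-numbered libraries deviated together in the Ldha (r = 0.25 to 0.44) and Nampt (r = 0.25 to 0.34) lines in all 6 pairs of conditions over 14912 genes. There the replicate number is also the library set, so pairing of cultures and a difference between sets cannot be told apart. With the block, the fitted coefficient of variation was 0.068 instead of 0.123 in the Ldha line and 0.048 instead of 0.104 in the Nampt line. In wild type r ran from -0.14 to 0.70. The pooled Cre, pooled IL-1β, interaction and Ldha line fits were tried on simulated counts with known changes. Those counts held no deviation shared by same-numbered libraries, and the other fits, wild type included, were not simulated.

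Named genes were the 10 members, the 3 deleted genes, the 5 genes most correlated with Ccnd1, and up to 5 pathway genes higher and 5 lower with the smallest adjusted p in each pooled comparison. Genes sharing exon bases with a member, Npr3, Mmp3 and the marker lists were added as context. The other pocket protein and E2F genes called in the pooled Cre comparison were added too. The members and gene lists were chosen with earlier results of these data known. Alternatives were DESeq2 1.42.0, voomWithQualityWeights (limma 3.58.1), RLE scaling, other filters, the replicate block, library set 2 alone and leaving out each library; the model with a Cre by IL-1β term and the fit without both doubted wild-type libraries were added after seeing the data.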

Additional observations from a re-analysis of the deposited data

Results flagged for a closer look

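Of the 10 members, 6 had a Cre difference that differed between IL-1β and untreated cultures of the Ldha and Nampt lines by the interaction test, in which 39.3% of all genes passed. The interaction, on the log2 scale and with a positive sign for a higher Cre difference under IL-1β, was 1.17 for Ccnd1, 1.22 for Cdkn1c, 0.63 for Cdk6 and 0.44 for Ccne1, and it was -0.67 for Ccne2 and -0.29 for Cdkn1b. The cause was not tested.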

How the results depend on the processing

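Over 1817 member values recomputed under the alternatives, 1725 kept direction and side of the threshold, 54 lost the call, 22 gained one and 16 changed sign. All 150 values of the pooled IL-1β comparison kept both. The pooled Cre comparison called 8 members, and 5 in library set 2 alone, which has fewer libraries. The Ldha line without IL-1β called 2 members, 1 with voomWithQualityWeights, and 1 to 2 without each library in turn. The Nampt line without IL-1β called 5, 8 with the replicate block, and 1 to 5 without each library, and the Nfkbiz GFP cultures called 5 with IL-1β, and 3 to 5 without each library. The block, put in or left out, changed no call beyond those given beside the results. The Cre by line term of Cdkn2a was -0.17, 0.32 in set 2 alone, and -0.33 to 0.07 without each library. Cdk4 with Cre gave 0.01 with filterByExpr in the Ldha line without IL-1β (-0.06 to 0.03 without each library) and 0.01 with no filter in the Nampt line under IL-1β (-0.14 to 0.06). In the Nampt line without IL-1β, leaving out libraries gave -0.08 to 0.05 for Ccne2 and -0.08 to 0.01 for Cdk4. For IL-1β in GFP cultures it gave -0.06 to 0.14 for Ccnd3 in the Nampt line, and -0.06 to 0.01 for Ccnd3 and -0.19 to 0.04 for Cdkn1b in the Nfkbiz line. Counts over all genes fell in set 2 alone from 7373 to 2642 for Cre, from 7925 to 5186 for IL-1β, from 5649 to 2533 for their interaction and from 5 to 0 for the Cre by line term, which rose to 499 with a Cre by IL-1β term. The block raised them from 877 to 1994 in the Ldha line and from 2319 to 4311 in the Nampt line, without IL-1β. In wild type no filter gave 8 genes for both agents against untreated, and leaving out both doubted libraries gave 1 for IL-1β and 1 for both agents, the lone library of an arm being assumed to vary like the others. Leaving out 1 library gave 289 to 766 genes in the Ldha line and 1332 to 2167 in the Nampt line for Cre without IL-1β, and 2487 to 4998 for IL-1β in the Nfkbiz GFP cultures. Where no cause is stated, the cause was not tested. Cdkn2a rests on few reads. Having 2 libraries per condition, with a shared deviation of same-numbered ones in the Ldha and Nampt lines, limits every call within a line.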
